A study of Arabidopsis thaliana with 2 samples.

Results

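Pseudogene and transposon gene loci are stretches of the Arabidopsis thaliana genome that the annotation records as genes without an intact, translated product of the host. They were taken as all nuclear loci with the biotype pseudogene in the RefSeq gene table, each counted once by its locus tag, which gave 3917 of 37899 nuclear loci. The table marks transposable element genes with that same biotype and does not say which loci they are, apart from those with a name. Of the 3917 loci, 27 carried a symbol other than the locus tag, among them 16 SADHU and 6 MUSTANG elements. A locus was said to hold a summit when the highest point of a peak fell in the locus or at most 200 bp beyond one of its ends. Distance bands below leave out their lower bound and take in their upper bound, and length classes do the reverse.

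Transposable elements are DNA stretches that copy or move themselves within a genome, and in Arabidopsis they are concentrated around the centromeres, where most are silenced by DNA methylation and compact chromatin. Pseudogenes are gene copies that have lost the ability to make a working protein. IBH1 is an atypical helix-loop-helix protein that restrains cell elongation and lacks the basic region with which related proteins touch DNA.

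The peaks came from chromatin immunoprecipitation and sequencing (ChIP-seq) of whole seedlings, ecotype Col-0, taken 10 days after sowing at 22 °C under a photoperiod of 16 h with no treatment. A p35S::IBH1-GFP line (IBH1OE), in which the broadly active 35S promoter drives IBH1 fused to green fluorescent protein, was set beside a p35S::GFP line, and an anti-GFP antibody was used for each. DNA from 3 independent ChIP experiments was pooled for each library, with 18 cycles of PCR. Each group was therefore 1 library without replicates, and no p-value was computed. In the labels, IBL1 appears in the title of the tagged sample while its line names IBH1, and the library protocol names Col-0 in place of the GFP line for the control.

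The deposited list held 2945 peaks, of which 2944 were nuclear and 1 mitochondrial. The list names no sample, and its peaks were read as those of IBH1-GFP from the design of the series. Whether the GFP library served as background in peak calling is not given in the sources used here. The depth of the libraries is unknown, and all intervals below are exact 95% intervals that cover counting error only. How reads that fit several places were treated is also not given, and the part of that treatment in the low counts at repeated sequence was not tested.

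Few pseudogene loci held a summit. There were 85 among the 3917, a share of 2.17% (1.74% to 2.68%), while 7.35% of all nuclear loci and 8.7% of the 27444 protein-coding genes (8.37% to 9.04%) did. The interval for pseudogene loci did not overlap that for protein-coding genes. Transcribed pseudogenes, a separate biotype for copies with evidence of RNA, lay between them, with 45 of 926 loci or 4.86% (3.57% to 6.45%). Long non-coding RNA loci held a summit in 157 of 3480 cases, or 4.51% (3.85% to 5.25%). Pseudogene loci thus had the lowest share of these 4 kinds of locus when pooled over all places. The kinds differ in where they lie, and these pooled shares are not matched for place.

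The summit was inside the locus for 78 of the 85 and only in the flanking 200 bp for the other 7. A pair of summits lay at 5 of the loci and no locus held 3. These loci took in 89 of the nuclear peaks, or 3.02%, since a single peak was shared by SADHU2-1 and the longer locus AT1G35110 that it overlaps. Most pseudogene loci were far from any peak. The nearest summit was over 20000 bp away for 2645 loci (67.5%), 5000 to 20000 bp away for 823 (21%), 1000 to 5000 bp away for 311 (7.94%) and 200 to 1000 bp away for 53 (1.35%). These distances are not given here for other kinds of locus, so they do not set pseudogene loci apart from them. Just inside the limit of 200 bp stood AT4G01530 at 170 bp and PMI15 at 155 bp, and just outside it AT3G44420 at 205 bp and AT3G45250 at 237 bp.

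Summits at these loci were rarely at a protein-coding gene, which follows largely from where the loci lie. Only 65 pseudogene loci overlapped a protein-coding gene, so few of these summits could fall in one. The counts below therefore describe places and are not a test of whether peaks avoid protein-coding genes. Among the 89 summits, 1 fell in a protein-coding gene, at AT1G44570, a locus of 73 bp within CJD1. Another lay 1 to 200 bp from a protein-coding gene, 13 lay at 200 to 1000 bp, 56 at 1000 to 5000 bp and 18 at over 5000 bp. Within the annotation, 6 of the 89 peaks also had their summit at another kind of locus, which was a miscellaneous RNA for 3, and a long non-coding RNA, a transcribed pseudogene and a transfer RNA for 1 each. Among the 83 pairs of a locus and a summit inside it, 43 summits were within 500 bp of an end of the locus and 20 were over 1000 bp from both ends. The median share of the peak that lay over the locus was 94.2%, and 37 peaks were wholly inside a locus.

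By chromosome, the share ran from 1.03% to 2.94%. Chromosome 4 had 21 of 714 loci (2.94%, 1.83% to 4.46%), chromosome 2 had 22 of 830 (2.65%, 1.67% to 3.99%) and chromosome 1 had 18 of 689 (2.61%, 1.56% to 4.1%). Chromosome 5 had 15 of 806 (1.86%, 1.05% to 3.05%) and chromosome 3 had 9 of 878 (1.03%, 0.47% to 1.94%). The interval of chromosome 3 overlapped those of each of the other 4, narrowly for chromosome 4. Overlap alone does not place a difference within counting error, and no difference between chromosomes was tested, so no order is claimed. Protein-coding genes had 8.02%, 9.82%, 7.69%, 11.9% and 7.44% on chromosomes 1 to 5, with chromosome 4 again highest and chromosome 5 in place of chromosome 3 lowest. On every chromosome the pseudogene interval lay below the protein-coding interval.

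**Figure D1:**
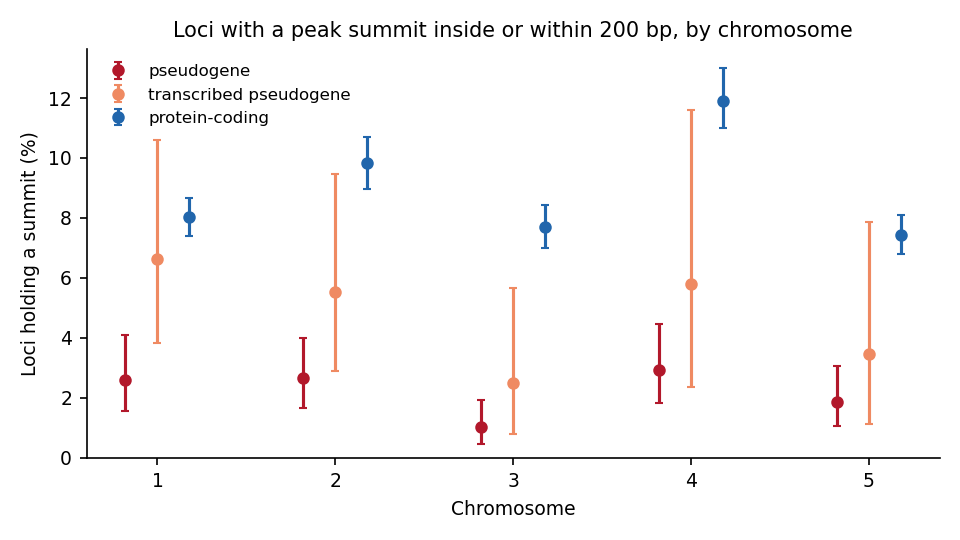
Percent of loci holding a summit (vertical axis) on each of the 5 chromosomes (horizontal axis) for pseudogene, transcribed pseudogene and protein-coding loci, with exact 95% intervals as bars. Pseudogene loci run from 1.03% on chromosome 3 to 2.94% on chromosome 4 and lie below protein-coding genes on each chromosome.

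The order of chromosomes depended on the distance from genes, with small counts. Within 5000 bp of a protein-coding gene, 7 of 400 pseudogene loci held a summit on chromosome 3 (1.75%, 0.706% to 3.57%), beside 13 of 378 on chromosome 1 (3.44%), 21 of 425 on chromosome 2 (4.94%), 16 of 281 on chromosome 4 (5.69%, 3.29% to 9.08%) and 15 of 356 on chromosome 5 (4.21%). Chromosome 3 was the lowest of the 5, and its interval still overlapped that of chromosome 4. Farther than 5000 bp from a protein-coding gene the counts were 5 of 311, 1 of 405, 2 of 478, 5 of 433 and 0 of 450 on chromosomes 1 to 5. There chromosomes 5 and 2 were below chromosome 3, whose share was 0.418%. The count of 0 on chromosome 5 allows a share of up to 0.816% there. Per length of pseudogene sequence outside protein-coding genes, chromosome 3 had 4.24 summits per Mb (1.94 to 8.04), against 8.91, 11.8, 11.5 and 7.77 per Mb on chromosomes 1, 2, 4 and 5.

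Distance from the nearest protein-coding gene set the pseudogene loci further apart than the chromosome did. Of the 65 loci that overlapped a protein-coding gene, 2 held a summit (3.08%, 0.375% to 10.7%). The share was 7 of 140 at 1 to 200 bp (5%, 2.03% to 10%), 26 of 571 at 200 to 1000 bp (4.55%, 3% to 6.6%) and 37 of 1064 at 1000 to 5000 bp (3.48%, 2.46% to 4.76%). It was 12 of 1217 at 5000 to 20000 bp (0.986%, 0.511% to 1.72%) and 1 of 860 beyond 20000 bp (0.116%, 0.00294% to 0.646%). The 4 nearest bins overlapped each other in their intervals, and the drop came past 5000 bp.

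Taken in wider groups, 72 of 1840 loci within 5000 bp of a protein-coding gene held a summit (3.91%, 3.07% to 4.9%), and 13 of 2077 beyond 5000 bp did (0.626%, 0.334% to 1.07%). These intervals did not overlap. Loci within 5000 bp made up 84.7% of those with a summit and 47% of all pseudogene loci. The median distance was 1308 bp for loci with a summit (quartiles 429 and 3032 bp) and 6020.5 bp for loci without. Protein-coding genes, measured to the nearest other protein-coding gene, showed no such drop when pooled over all places. Past 5000 bp 47 of 507 held a summit (9.27%, 6.89% to 12.1%). At 5000 to 20000 bp they had 46 of 428 (10.7%, 7.98% to 14.1%), an interval wholly above that of pseudogene loci at the same distance. Beyond 20000 bp they had 1 of 79 (1.27%, 0.032% to 6.85%). Inside the gene-poor windows described below, protein-coding genes did drop past 5000 bp. There 14 of 245 held a summit (5.71%, 3.16% to 9.4%), against 97 of 708 within 5000 bp (13.7%, 11.3% to 16.5%).

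**Figure D2:**
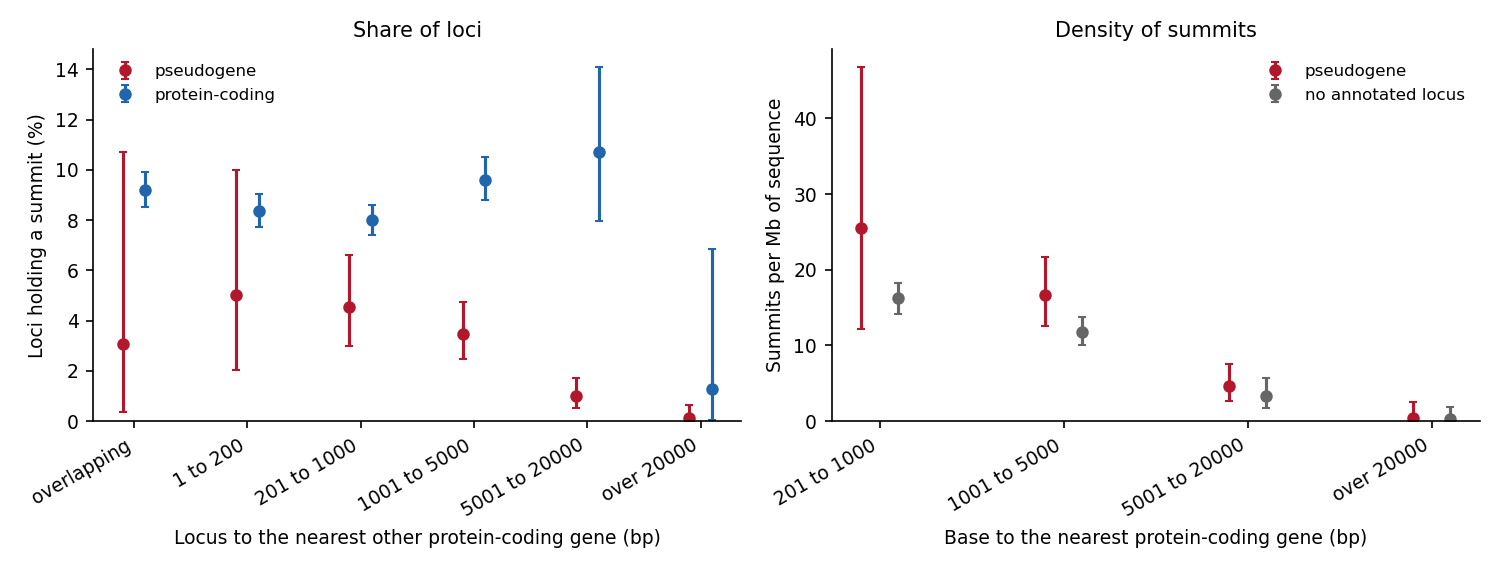
Left, percent of pseudogene and protein-coding loci holding a summit by distance of the locus from the nearest other protein-coding gene in bp. Right, summits per Mb of pseudogene sequence and of sequence with no annotated locus by distance of the base from the nearest protein-coding gene in bp; bars are exact 95% intervals, and pseudogene loci fall from 3.48% at 1000 to 5000 bp to 0.986% at 5000 to 20000 bp.

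Counted per length of sequence, pseudogene loci held 8.67 summits per Mb (6.89 to 10.8) outside protein-coding genes. Sequence with no annotated locus held 17.3 per Mb (16.1 to 18.6), protein-coding genes 30.8 (29.5 to 32.2) and transcribed pseudogenes 28.6 (19.3 to 40.8). Set beside bases at the same distance from a protein-coding gene, pseudogene sequence was not below unannotated sequence past 200 bp. Within 200 bp of a gene there were 0 summits in 0.02387 Mb of pseudogene sequence (0 to 155 per Mb) and 43.2 per Mb in unannotated sequence (38.6 to 48.2), so a difference was not detectable there. At 200 to 1000 bp the density was 25.5 summits per Mb in pseudogene loci (12.2 to 46.8) and 16.2 in unannotated sequence (14.2 to 18.3). At 1000 to 5000 bp it was 16.7 (12.5 to 21.7) and 11.8 (10 to 13.8), and at 5000 to 20000 bp it was 4.64 (2.65 to 7.53) and 3.32 (1.77 to 5.68). Beyond 20000 bp it was 0.448 and 0.336, each from a single summit. In each of these 4 bands past 200 bp the pseudogene value was the higher, and in each the intervals overlapped.

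Outside the gene-poor windows described next, the difference at 1000 to 5000 bp was larger. There the density was 21.8 summits per Mb in pseudogene loci (15.7 to 29.5) and 13 in unannotated sequence (10.9 to 15.3), intervals that were narrowly apart. Inside those windows the 2 densities at this distance were 9.12 (4.71 to 15.9) and 5.98 (3.19 to 10.2). In the flanks of pseudogene loci, outside protein-coding genes, summits were found at 4.75 per Mb within 200 bp (1.91 to 9.78), 6.96 at 200 to 1000 bp (4.63 to 10.1), 10.5 at 1000 to 2000 bp (7.03 to 15.1) and 13.7 at 2000 to 5000 bp (10.4 to 17.7). Peaks were thus not denser in the near flanks of the loci than within them.

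Windows of 500000 bp with fewer than 60 protein-coding genes were called gene-poor, and 36 of 240 windows were. They held 2605 of the pseudogene loci (66.5%) and 3.47% of the protein-coding genes. Inside them 19 of 2605 pseudogene loci held a summit (0.729%, 0.44% to 1.14%). The share was 54 of 853 within 2 Mb of such a window (6.33%, 4.79% to 8.18%), 5 of 224 at 2 to 5 Mb (2.23%, 0.729% to 5.13%) and 7 of 235 beyond 5 Mb (2.98%, 1.21% to 6.04%). The belt within 2 Mb held 63.5% of all pseudogene loci with a summit, and its interval lay above that of the gene-poor windows but overlapped those of the outer groups.

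Protein-coding genes were also highest in that belt, with a smaller drop inside the windows. Their share was 11.6% inside the windows (9.68% to 13.9%), 17% within 2 Mb (15.9% to 18.1%), 10.2% at 2 to 5 Mb (9.48% to 11%) and 5.63% beyond (5.28% to 6%). Beyond 5 Mb the pseudogene interval reached that of protein-coding genes, and transcribed pseudogenes there had 12 of 248 (4.84%, 2.52% to 8.3%). Inside the gene-poor windows the intervals of pseudogene loci and protein-coding genes were far apart. Transcribed pseudogenes had 1.83% inside the windows (0.502% to 4.63%) and 6.81% within 2 Mb (4.15% to 10.4%). Both intervals overlapped those of pseudogene loci in the same places.

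**Figure D3:**
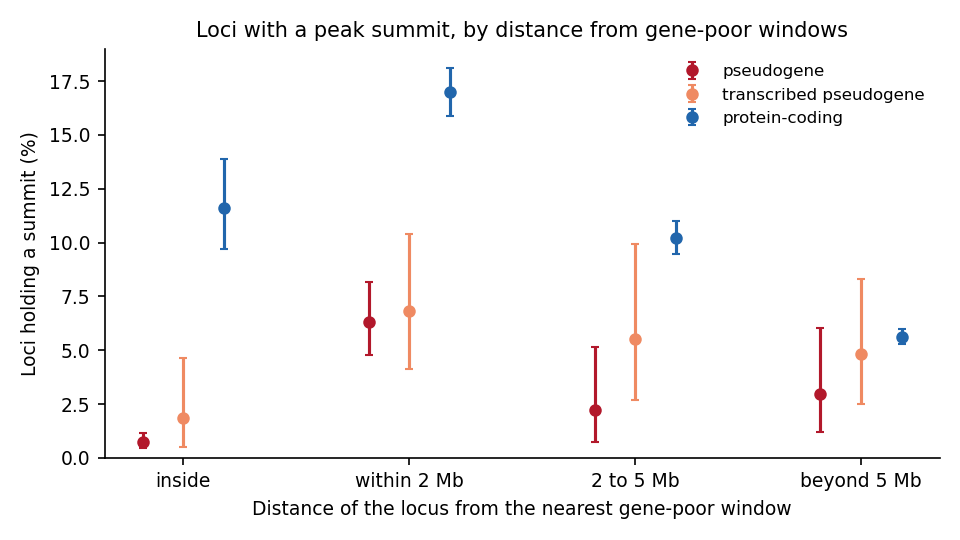
Percent of loci holding a summit (vertical axis) by distance of the locus from gene-poor windows (horizontal axis) for pseudogene, transcribed pseudogene and protein-coding loci, with exact 95% intervals as bars. Pseudogene loci are at 0.729% inside the windows and 6.33% within 2 Mb of them, and protein-coding genes are at 11.6% and 17%.

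The difference between gene-poor windows and the belt around them was also seen within each of 2 broad groups of distance from a gene. Among pseudogene loci within 5000 bp of a protein-coding gene, 13 of 749 inside the gene-poor windows held a summit (1.74%, 0.927% to 2.95%), against 47 of 657 within 2 Mb of them (7.15%, 5.3% to 9.4%). Among loci over 5000 bp from a protein-coding gene the counts were 6 of 1856 (0.323%, 0.119% to 0.702%) and 7 of 196 (3.57%, 1.45% to 7.22%). Both pairs of intervals were apart. The farther group is not alike in distance, since 2.198 of 2.231 Mb of pseudogene sequence beyond 20000 bp lay inside the windows. At 5000 to 20000 bp the density of summits was 1.85 per Mb inside the windows (0.602 to 4.32) and 14.6 outside them (7.3 to 26.1). Between the distance groups the intervals of the shares were apart inside the windows and overlapped within 2 Mb of them. Protein-coding genes within 5000 bp of another one and inside the windows had 97 of 708 (13.7%, 11.3% to 16.5%), far above the pseudogene loci in the same setting. Over 5000 bp from another one and inside the windows they had 14 of 245 (5.71%, 3.16% to 9.4%), intervals that were apart. Within 2 Mb of the windows the 2 shares of protein-coding genes were 17% and 16.3%.

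Outside the gene-poor windows, chromosome 3 again had the lowest share of pseudogene loci, 6 of 244 (2.46%, 0.908% to 5.28%), beside 15 of 300 on chromosome 1 (5%), 18 of 306 on chromosome 2 (5.88%), 16 of 236 on chromosome 4 (6.78%) and 11 of 226 on chromosome 5 (4.87%). Inside the windows the counts were 3 of 389, 4 of 524, 3 of 634, 5 of 478 and 4 of 580 on chromosomes 1 to 5. Protein-coding genes inside the windows had 5 of 190 on chromosome 3 (2.63%), against 15.3%, 10.5%, 18.9% and 13% on chromosomes 1, 2, 4 and 5. Outside the windows protein-coding genes had 7.87% on chromosome 3, which was not the lowest, with 7.25% on chromosome 5 and 7.84% on chromosome 1. Inside the windows transcribed pseudogenes had 4 of 64 on chromosome 3 (6.25%, 1.73% to 15.2%) and 0 on the other 4 chromosomes, from 25 to 51 loci each. Those counts of 0 allow shares of up to 6.98% on chromosome 5 and 13.7% on chromosome 1, and all 4 intervals overlapped that of chromosome 3. Outside the windows transcribed pseudogenes were lowest on chromosome 3, with 1 of 138 (0.725%, 0.0183% to 3.97%), against 5.32% to 7.61% on the other chromosomes. They were also lowest on chromosome 3 over all loci (5 of 202, 2.48%) and within 5000 bp of a protein-coding gene (2 of 164, 1.22%). The low value of chromosome 3 was thus shared by transcribed pseudogenes outside the windows, and inside them the counts were too few to tell. Protein-coding genes shared it inside the windows only.

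Long pseudogene loci held summits more often than short ones. The loci had a median length of 2043 bp and ran from 71 to 15195 bp. The share was 2 of 298 under 500 bp (0.671%), 7 of 753 at 500 to 1000 bp (0.93%), 14 of 862 at 1000 to 2000 bp (1.62%, 0.891% to 2.71%), 20 of 1220 at 2000 to 4000 bp (1.64%, 1% to 2.52%) and 42 of 784 at 4000 bp or more (5.36%, 3.89% to 7.17%). The longest class stood apart from each of the others in its interval. It made up 49.4% of the loci with a summit and 20% of all pseudogene loci. Protein-coding genes of these lengths had 2.91%, 4.81%, 7.76%, 10% and 12.6%, a rise spread over all classes.

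**Figure D4:**
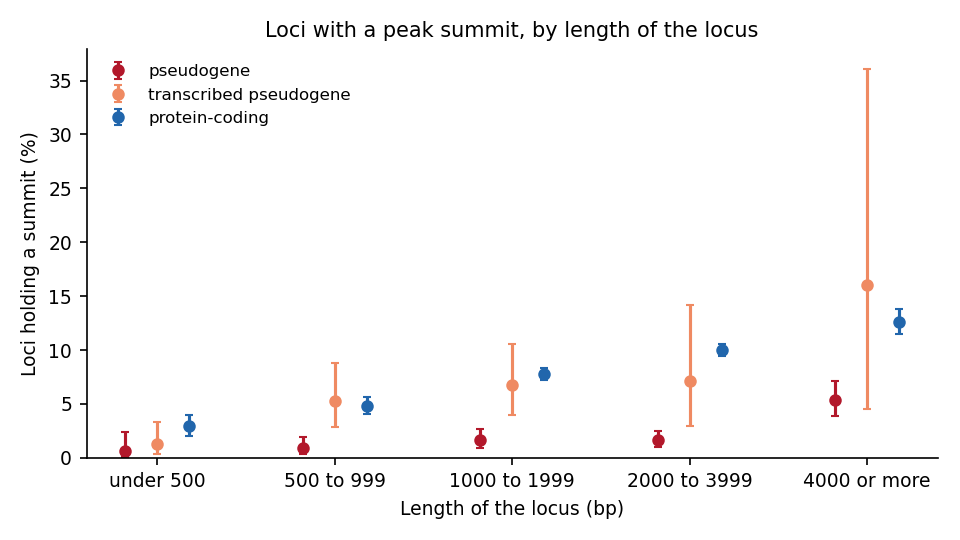
Percent of loci holding a summit (vertical axis) by length of the locus in bp (horizontal axis) for pseudogene, transcribed pseudogene and protein-coding loci, with exact 95% intervals as bars. Pseudogene loci stay at or below 1.64% under 4000 bp and reach 5.36% at 4000 bp or more.

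A longer locus offers more sequence for a summit, so densities were set beside the shares. Pseudogene loci of 2000 to 4000 bp had 5.5 summits per Mb (3.31 to 8.59) and those of 4000 bp or more had 11.3 (8.23 to 15.1), intervals that overlapped slightly. Shorter classes had 9.45, 13 and 7.98 per Mb, from few summits, so no order across all lengths was seen. Among protein-coding genes the density fell through these classes, with 66.6, 49.9, 42.4, 31.2 and 19.7 per Mb. Among long pseudogene loci the share was 30 of 442 at 4000 to 5000 bp (6.79%, 4.63% to 9.55%), 7 of 230 at 5000 to 6000 bp (3.04%) and 5 of 112 at 6000 bp or more (4.46%). Of the loci of 4000 bp or more that lay within 5000 bp of a protein-coding gene, 37 of 454 held a summit (8.15%, 5.8% to 11.1%). Protein-coding genes of that length within 5000 bp of another one had 403 of 3214 (12.5%, 11.4% to 13.7%), an interval wholly above it.

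The peaks at pseudogene loci were low for their score. The score is the peak caller's measure of how far a peak stands above background, and the height is the number of fragments stacked at the summit; both are the authors' values. The 89 peaks had a median score of 70.38 (quartiles 57.65 and 94.64, range 50.1 to 254.47), and the 2855 peaks at no pseudogene locus had 72.83. Their median height was 22 fragments (quartiles 19 and 26, range 16 to 58), against 27 (quartiles 23 and 35) for the others. Peaks with their summit in a protein-coding gene were closer, with a median height of 25 (quartiles 22 and 32) and a median score of 71.13. The scores were thus close and the heights lower.

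Only 12 of the 89 were taller than the median of all nuclear peaks, and 80 were under 30 fragments. A height of 40 or more was reached by 5 (5.62%), against 15.8% of all nuclear peaks. A score of 100 or more was reached by 18 (20.2%), against 24.8% of all nuclear peaks. The peak with the highest score among them ranked 39 in the whole list and the tallest ranked 76. Across the 89 peaks, which share a library and are not independent, score and height had a Spearman rho of 0.426 and a Pearson r of 0.478, given as a description.

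**Figure D5:**
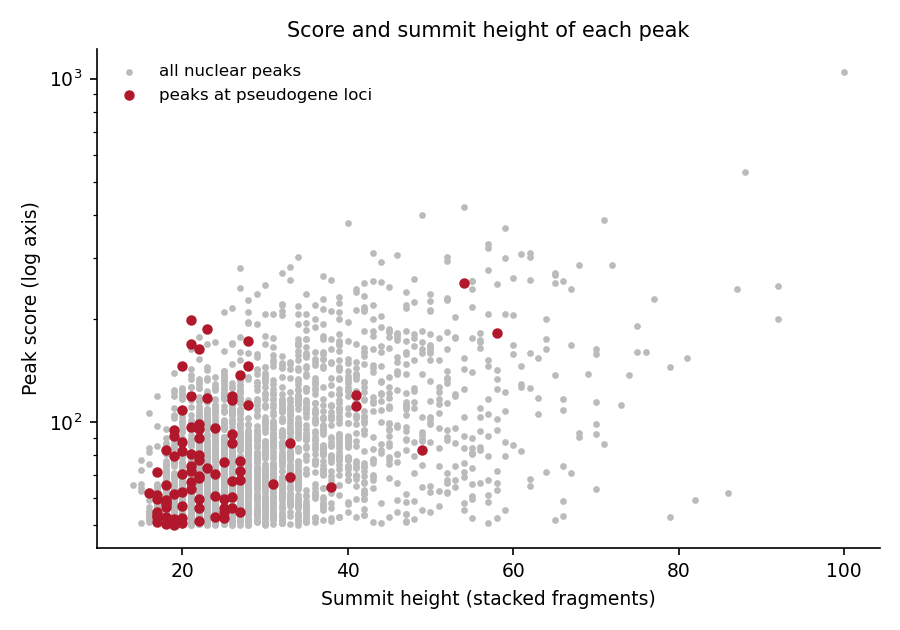
Score on a log axis (vertical) against summit height in stacked fragments (horizontal) for each nuclear peak in grey and for the 89 peaks at pseudogene loci in red. The red points have a median height of 22 fragments and reach at most 58, and their median score is 70.38.

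The lower height was also seen among peaks in like places. Among peaks whose summit lay over 1000 bp from any protein-coding gene, the 74 at pseudogene loci had a median height of 22 and the other 207 had 31 (quartiles 25 and 41.5), with median scores of 71.945 and 74.92. Inside gene-poor windows the medians were 19 for 20 peaks at pseudogene loci and 26 for 153 others. By chromosome the median height at pseudogene loci was 21, 21.5, 22, 22 and 22, and that of other peaks 27, 27, 28, 27 and 26. Peaks at pseudogene loci were a little wider, with a median of 960 bp (quartiles 797 and 1235 bp) against 880 bp (722 and 1113 bp). Peaks with their summit in a protein-coding gene had a median width of 900 bp.

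Coordinates below are those of the authors' list on TAIR9, counted from 1. The highest score belonged to the peak at AT3G45095, a locus of 4345 bp, which spanned chromosome 3, 16502525 to 16504829, with its summit at 16503093, score 254.47 and height 54. This summit lay 1221 bp from SETH2, a gene of glycosylphosphatidylinositol anchor synthesis needed for pollen tube growth. AT5G38365 followed with 2 peaks, at chromosome 5, 15333941 to 15335519 with score 197.71 and height 21, and at 15335665 to 15336767 with score 62.13 and height 16. The first of these peaks combined the second highest score with a height under the median of the group.

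The tallest summit was at AT4G01530, where the peak at chromosome 4, 662750 to 663767 was 58 fragments high with a score of 181.13. It lay 170 bp outside the locus and 4060 bp from NAC067, a member of the NAC family of transcription factors, so it would not be counted with a window of 0 bp. AT2G14220 had a peak of height 49 and score 82.78 at chromosome 2, 6025281 to 6026763, wholly inside the locus and 2223 bp from AGL44, a MADS-box gene that acts in the nitrate response of roots. AT1G35465 and AT3G29776 each had a summit of 41 fragments, with scores of 119.37 and 111.18. The first lay 1698 bp from RALFL5, which encodes a small secreted peptide of the RALF family, and the second lay 4675 bp from MES11, of the methyl esterase family. Together with PMI15, at 38 fragments, these loci carried summits taller than the third quartile of other peaks.

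Further loci with high scores had summits of ordinary height for the group. AT1G43886, of 6269 bp, had its peak at chromosome 1, 16639008 to 16640837 with score 168.75 and height 21, shared with the miscellaneous RNA locus AT1G07203. AT4G09425 had 163.52 and 22, AT2G15750 had 145.27 and 20, and AT4G12915 had 119.29 and 21 for score and height. AT4G09565 had 145.05 and 28, from a summit 120 bp outside the locus and 1733 bp from CPK4, a calcium-dependent protein kinase. AT4G08995 had 118.79 and 26, and AT2G05030 had 117.44 and 23. The peak at AT2G05030 was the widest at these loci, at 2566 bp, and its summit also fell at AT2G00410. Of the 15 loci with the highest scores, AT3G45095, AT4G01530 and AT1G35465 exceeded 40 fragments.

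The other loci with a pair of peaks were weaker. AT2G04490 had scores of 115.77 and 77.28 with heights of 26 and 22. AT2G04290 had scores of 74.32 and 52.14 with heights of 21 and 19. AT4G08375 had 73.52 and 58.31 with heights of 23 and 18, and AT1G31100 had 70.43 and 61.09 with heights of 24 and 17. In each of these 4 loci the peak with the higher score was also the taller one.

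Of the 5 loci with a summit that lay farthest from genes, 3 had scores near the lowest in the list. The farthest locus with a summit was AT4G08090, 28161 bp from a protein-coding gene, with a peak at chromosome 4, 4973453 to 4974000, score 51.4 and height 19. AT3G43355, at 16398 bp, had 50.56 and 18, and AT3G30213, at 13977 bp and nearest to MYB121, a MYB transcription factor gene, had 52.93 and 17. AT1G36120, at 13693 bp, had 71.36 and 17. AT4G04145, at 15654 bp, had the highest of the 5 scores, 92.3, with a height of 26. All 5 lay inside gene-poor windows.

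Among the named elements, SADHU loci could be followed one by one. SADHU elements are short retroposons of Arabidopsis that do not encode the proteins for their own movement, and expression of single copies is known to be silenced by chromatin in some accessions. A summit was held by 3 of 16 (18.8%, 4.05% to 45.6%), against 80 of 3890 pseudogene loci without an element name (2.06%, 1.63% to 2.55%). Among unnamed loci of 700 to 2000 bp it was 17 of 1226 (1.39%, 0.81% to 2.21%), where the median SADHU length was 901.5 bp. The lower bound for SADHU lay above both upper bounds, from 3 loci only. Neither comparison was matched for place. Most SADHU loci lay within 5000 bp of a protein-coding gene and outside gene-poor windows, where shares of pseudogene loci were higher. Element and place were therefore not told apart. The peak of SADHU2-1 was also counted for AT1G35110, which is among the 3890 loci.

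SADHU1-3 (AT5G28626) had its peak at chromosome 5, 10632181 to 10633442, with score 185.85 and height 23, inside a gene-poor window. SADHU8-1 (AT1G50735) had a peak at chromosome 1, 18806509 to 18808188, with score 171.94 and height 28, whose summit lay 375 bp from the protein-coding gene AT1G50740. SADHU2-1 (AT1G35112) shared its peak at chromosome 1, 12840092 to 12841101, with AT1G35110, with score 136.66 and height 27. Its summit lay 11455 bp from the nearest protein-coding gene, PHI-1, a phosphate-induced gene. These 3 peaks were each among the higher scores at pseudogene loci.

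The other 13 SADHU copies had no summit within the limit. The nearest summit was 1540 bp from SADHU5-1, and it was 129301 bp from SADHU3-2, 224555 bp from SADHU1-1 and 730479 bp from SADHU7-2. Copies of 1 subfamily thus differed, since SADHU1-3 held a summit and SADHU1-1 was far from any.

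MUSTANG genes descend from transposases of Mutator-like elements and have been kept as host genes in flowering plants. Of 6 loci, MUG2 (AT2G30640) held a summit (16.7%, 0.421% to 64.1%), with a peak at chromosome 2, 13049376 to 13050610, score 82.26 and height 20. MUG8 was 249714 bp from the nearest summit. Of the 5 other named loci, PMI15 (AT5G38150), named for plastid movement, counted through a summit 155 bp outside it. That peak spanned chromosome 5, 15224923 to 15225810, with score 64.4 and height 38, and its summit also reached the transfer RNA locus AT5G38155. CYTOSLEEPER, named after hAT-type transposases, and the copia retrotransposon RE2 held none, and a summit lay 2127 bp from RE2. With 6 and 5 loci, neither share could be told from the background.

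Pseudogene loci were also split by whether their nearest protein-coding gene held a summit. Of the 1546 protein-coding genes that were the nearest one to some pseudogene locus, 183 held a summit (11.8%, 10.3% to 13.6%), against 8.7% of all protein-coding genes. These shares were not matched for place. Protein-coding genes had 11.6% inside the gene-poor windows, 17% within 2 Mb of them and 5.63% beyond 5 Mb, so no excess among the nearest genes is claimed. Among pseudogene loci whose nearest protein-coding gene held a summit, 16 of 317 held one too (5.05%, 2.91% to 8.07%), against 69 of 3600 of the others (1.92%, 1.49% to 2.42%). Without loci whose own summit also reached a protein-coding gene, the first share was 14 of 315 (4.44%, 2.45% to 7.34%). These pooled intervals stayed apart by a narrow margin. Within bands of distance from the gene they mostly did not: the shares were 5.97% (1.65% to 14.6%) and 4.37% (2.76% to 6.53%) at 200 to 1000 bp, and 4.27% (1.4% to 9.69%) and 3.38% (2.32% to 4.74%) at 1000 to 5000 bp. At 5000 to 20000 bp they were 5 of 85 (5.88%, 1.94% to 13.2%) and 7 of 1132 (0.618%, 0.249% to 1.27%), the only band with intervals apart. Among those 5 loci, AT1G35110, SADHU2-1 and AT1G35115 had PHI-1 as their nearest gene, and AT1G35110 and SADHU2-1 shared a single peak. The interval treats them as independent, so the separation in this band rests on fewer peaks than loci. Beyond 20000 bp they were 0 of 35, which allows a share of up to 10%, and 1 of 825. Of all peaks at these loci, 19 of 89 had a nearest protein-coding gene with a summit of its own.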

How the data were processed

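The tools named in the submitters' processing notes are MACS, Bowtie and CASAVA 1.8.2, and the build is TAIR9. The sources used here give no settings. The authors deposited a peak list with a score per peak and a summit list with a signal per summit, a whole number of stacked fragments called height here. Both rank peaks within that list only, and peaks under the authors' threshold are not listed. The control library was not analysed separately.

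Loci came from a RefSeq gene table of TAIR10.1, without strand, exons or descriptions, so the planned classes of element by description were replaced by the symbol. Summits were placed on it after a check by shifting: 65.2% to 70.3% of summits on each chromosome lay in protein-coding genes with no shift, and at most 64.4% did with shifts of 1000 to 5000 bp either way. Printed coordinates are the authors'. Shares carry exact Clopper-Pearson intervals and densities exact Poisson intervals at 95%. The limit given for a count of 0 is the upper bound of that interval. The counting was tested on simulated summits. Python 3.11.15, NumPy 2.4.6, pandas 2.3.3 and SciPy 1.17.1 were used.

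The named loci are the 15 with the highest peak score, the 5 with the tallest summits, the 5 holding a summit farthest from a protein-coding gene, the highest score on each chromosome, up to 5 with more than 1 summit, and 2 on each side of the 200 bp limit. SADHU, MUSTANG and other named loci were added by symbol. The loci and lists were chosen with earlier results of these data known. Alternatives were the window, the score minimum, any overlap with a peak, leaving out chromosome 4 or loci near genes, and the gene-poor limit.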

Additional observations from a re-analysis of the deposited data

How the results depend on the processing

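A share or median was taken as moved when it left the 95% interval of the value in the text, and a ratio, spread or count when it changed by over 1.5 times, so shares with many loci moved most readily. By this, 23 of 105 alternative values moved and 82 did not. The direction of some moves was set in advance: a score minimum can only lower shares, and a wider window can only raise them. The named loci were partly picked by score and height, so the tally is not a measure of how firm the results are. The share of pseudogene loci with a summit (2.17%) was 3.52% with a window of 1000 bp, 2.68% with any overlap of a peak, 1.02% for peaks at or above the median score, 0.485% for scores of 100 or more, 1.59% without loci within 1000 bp of a protein-coding gene and 2.68% with transcribed pseudogenes included, the last an alternative chosen after seeing the data. For protein-coding genes the share (8.7%) was 12.7%, 10.2%, 4.49%, 2.28% and 9.58% in the first 5 of these, 7.05% with summits inside only and 8.12% without chromosome 4. The ratio of these shares (0.249) was 0.166 without loci within 1000 bp of a gene and ran from 0.166 to 0.308 in all. The spread between chromosomes (1.92 percentage points) was 1.23 above the median score and 0.788 for scores of 100 or more. Chromosome 3 was lowest in 13 of 13 settings, but these recount the same peaks and loci and add no independent support. For scores of 100 or more it had 0.228%, beside 0.248% on chromosome 5. The ratio of the share within 1000 bp of a gene to that beyond 5000 bp (7.21) was 3.35 for scores of 100 or more, where the median score was 141, the median height 26 and the named loci 17. The median score was 96.4 above the median score. Inside gene-poor windows the share (0.729%) was 0.192% with a limit of 40 genes and 1.17% with a limit of 80. These limits, and the alternatives run for the SADHU share, were not planned either. Not run were the distance ratio without loci within 1000 bp of a gene, classes by description and the chromosome spread without chromosome 4. No paired analysis was possible because the groups held 1 library apiece. Unknown depth leaves peaks under the authors' threshold unseen.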
